A study of Mus musculus with 24 samples.

Results

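Transcript levels of 10 regulators of epithelial and mesenchymal identity were followed across mouse small cell lung cancer (SCLC) cell lines in which p53 can be switched back on. The 10 genes were taken by symbol from a list of known regulators, chosen with earlier results of these data known. All 10 are present among the 25239 genes of the expression table. Of these, 7 encode factors that drive epithelial-mesenchymal transition (EMT): Zeb1, Zeb2, Snai1, Snai2, Twist1, Twist2 and Prrx1. The other 3, Grhl2, Ovol1 and Esrp1, maintain epithelial identity. The measured quantity is TPM, the number of a gene's transcripts per 1000000 transcripts, which is scaled for transcript length and library size, so that levels of different genes can be set side by side.

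The 6 lines came from individual lung tumors of Rb1 flox/flox and Rbl2 flox/flox mice that also carry Trp53 XTR/XTR and Rosa26 FlpO-ER, after delivery of Cre by an adenovirus with the CMV promoter. All 24 libraries, controls included, are therefore from cells meant to lack functional Rb1 and Rbl2 and to hold Trp53 in a trapped, silent form, which 4-hydroxytamoxifen (4-OHT) reverts. The study sorted the lines by outcome after p53 restoration: Type D lines (4711-1, 4711-18 and 4716-11) lose viability, whereas viability is kept in Type V lines (4711-11, 4716-10 and 4716-14). From each of them 1 library was made at 72 h for each of 4 treatments: vehicle (Control), cyclosporin A, an inhibitor of cyclophilins (Control + CsA), 4-OHT (Restored) and both agents (Restored + CsA), which makes 8 groups of 3 lines. Each line is a single tumor's culture, so the 3 lines of a type are its replicates, and the 4 libraries of a line are not independent of each other.

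In EMT, epithelial cells lose cell-cell junctions and apical-basal polarity and take on the migratory, matrix-producing character of mesenchymal cells. ZEB and SNAIL proteins are zinc finger repressors that bind E-box sequences in the promoters of junction genes such as Cdh1. TWIST proteins are basic helix-loop-helix factors and PRRX1 is a homeodomain factor, and all of them also occur in normal connective tissue precursors. GRHL2 and OVOL1 oppose ZEB factors and keep junction genes active, and ESRP1 is an RNA-binding protein that imposes epithelial splice forms. In SCLC, a neuroendocrine carcinoma, non-neuroendocrine cells with mesenchymal features occur beside classic neuroendocrine cells.

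Promoters are shown here for the EMT factors that differed most between lines and for the pair of junction genes with the largest difference between types that have a RefSeq entry. Each is the 250 bases upstream of the RefSeq start on GRCm38.p6, written 5′ to 3′ on the gene's strand. Capitals mark an E-box, CAGGTG on either strand, the letters read by ZEB and SNAIL proteins. The windows are chr2:167537945-167538194 (plus strand) for Snai1, chr12:33957421-33957670 (plus strand) for Twist1, chr1:91801211-91801460 (plus strand) for Twist2, chr1:163313651-163313900 (minus strand) for Prrx1, chr5:134985964-134986213 (plus strand) for Cldn3 and chr10:81291582-81291831 (minus strand) for Tjp3.
Snai1: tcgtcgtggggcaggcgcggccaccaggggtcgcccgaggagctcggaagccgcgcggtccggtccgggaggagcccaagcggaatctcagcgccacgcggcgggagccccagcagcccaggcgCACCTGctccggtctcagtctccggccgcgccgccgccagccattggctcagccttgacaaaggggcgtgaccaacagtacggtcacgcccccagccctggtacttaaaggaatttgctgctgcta
Twist1: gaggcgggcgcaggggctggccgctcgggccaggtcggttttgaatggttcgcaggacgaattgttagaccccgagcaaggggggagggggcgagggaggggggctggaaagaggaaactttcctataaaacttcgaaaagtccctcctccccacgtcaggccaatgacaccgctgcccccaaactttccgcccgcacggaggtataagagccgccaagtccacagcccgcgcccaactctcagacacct
Twist2: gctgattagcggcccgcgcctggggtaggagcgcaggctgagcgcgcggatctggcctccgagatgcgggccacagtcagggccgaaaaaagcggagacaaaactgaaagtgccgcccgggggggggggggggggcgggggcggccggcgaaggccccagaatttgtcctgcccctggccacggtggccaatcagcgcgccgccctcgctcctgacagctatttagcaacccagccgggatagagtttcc
Prrx1: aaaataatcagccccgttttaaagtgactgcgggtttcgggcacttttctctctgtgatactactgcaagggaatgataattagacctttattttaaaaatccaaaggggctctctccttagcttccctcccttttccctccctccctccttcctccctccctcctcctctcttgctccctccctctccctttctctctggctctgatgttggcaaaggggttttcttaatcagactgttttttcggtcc
Cldn3: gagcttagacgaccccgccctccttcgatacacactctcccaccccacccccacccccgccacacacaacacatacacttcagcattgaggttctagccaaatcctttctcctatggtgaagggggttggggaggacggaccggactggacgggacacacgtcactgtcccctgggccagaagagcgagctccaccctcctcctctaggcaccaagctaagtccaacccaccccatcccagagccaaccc
Tjp3: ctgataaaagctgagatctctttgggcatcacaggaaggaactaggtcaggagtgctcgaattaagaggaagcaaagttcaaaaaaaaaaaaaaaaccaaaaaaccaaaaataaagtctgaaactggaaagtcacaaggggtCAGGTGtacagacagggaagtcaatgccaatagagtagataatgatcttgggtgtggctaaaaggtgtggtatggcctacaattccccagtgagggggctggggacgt

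The Snai1 window held 1 E-box, beginning 126 bases before the start, and the Tjp3 window held 1, beginning 108 bases before it. The letters did not occur in the windows of Twist1, Twist2, Prrx1 and Cldn3. Of the 27025 RefSeq promoters, with 1 window a gene, 4624 (17.1%) held a CAGGTG, against 9 of 16 windows available for a list of epithelial target genes and 0 of 11 for a list of mesenchymal target genes. The epithelial list was made of genes already known as targets of these repressors, so its count is a description. A Grainyhead motif, AACCNGTT on either strand, occurred in 470 (1.74%) of all windows and in 2 of the 16. A RefSeq window was found for 5 of the 10 regulators (Zeb2 is the fifth). Base composition differed between them, with 70.0% GC upstream of Snai1, 68.8% upstream of Twist2, 62.4% upstream of Twist1, 49.6% upstream of Zeb2 and 47.6% upstream of Prrx1.

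Trp53 itself read 10.5 to 15.3 TPM in the 12 libraries without 4-OHT and 181 to 253 TPM in the 12 with it, the direction the labels give. Rb1 read 7.36 to 17.3 TPM without 4-OHT and 21.1 to 68.8 TPM with it, and Rbl2 4.49 to 20.6 TPM over all libraries. A gene's total TPM does not show whether its floxed part was deleted. TPM keeps no sequencing depth, so counting error is unknown, and 11853 to 12651 genes a library reached 1 TPM. Differences were tested on log2(TPM + 1) with limma, a linear model fitted to all genes at once, over the 14104 genes with at least 1 TPM in 3 or more libraries. A gene is called when its Benjamini-Hochberg adjusted p is under 0.05 and its difference at least 1 log2. Of the 10 regulators 9 passed the filter on low values, Prrx1 through Type V libraries alone and Grhl2 through 5 unrestored Type D libraries alone. Ovol1 reached 1 TPM in 6 libraries and would not have passed without the restored Type V libraries. Esrp1 did not pass and is given as levels. Of 10 neuroendocrine markers 5 were under 1 TPM in every Type D library and 5 in every Type V library. Among them, Neurod1 did not exceed 0.0954 TPM in any library and Chga was listed at 0 throughout. Other markers of the list, named after their values were seen, were expressed. Ncam1 averaged 11.1 TPM in Type D Control and 17.1 TPM in Type V Control. Ddc spanned 3.52 to 79.4 TPM in Type D Control, and Uchl1 18.9 to 40.9 TPM in Type V Control.

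The summed level of the 7 EMT factors was higher in Type V lines, although levels of Snai1 and Twist1 overlapped between the types. The sum ranged from 24.9 to 82.5 TPM over the 12 Type D libraries (median 55.1) and from 224 to 366 TPM over the 12 Type V libraries (median 325), with no overlap. The 3 epithelial regulators were low throughout. They summed to 0.753 to 3.01 TPM in Type D and to 0.124 to 2.501 TPM in Type V, and these ranges overlapped. In these bulk cultures, fewer cells expressing a factor and less RNA per cell cannot be told apart.

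Which factor led the sum differed by line. In Type V line 4711-11 it was Snai2, with 133 TPM in Control or 59.5% of the sum. In line 4716-10 it was Prrx1, with 147 TPM or 43.9%, and in line 4716-14 it was Twist2, with 136 TPM or 37.6%. The leading factor of each of these lines was the same in all 4 of its libraries. Zeb1 led in 9 of the 12 Type D libraries and Snai2 in the other 3, among them Restored + CsA of 4711-1 (38.6 TPM) and of 4716-11 (27.8 TPM).

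**Figure D1:**
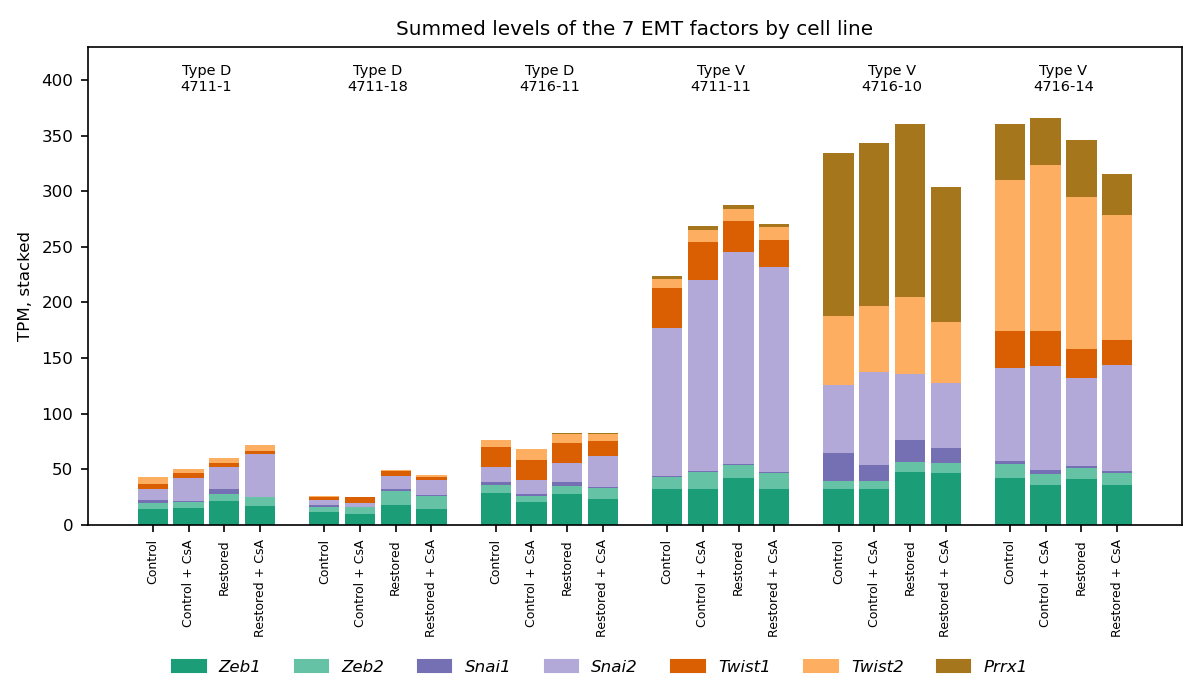
Stacked bars give the TPM of the 7 EMT factors in each of the 24 libraries, in blocks of 4 treatments for each line. Type D bars end between 24.9 and 82.5 TPM and Type V bars between 224 and 366 TPM, with Snai2 the largest portion in 4711-11, Prrx1 in 4716-10 and Twist2 in 4716-14.

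Zeb1, the repressor of junction and polarity genes, was present in every library. In Control it stood at 14.5, 11.0 and 28.5 TPM in Type D lines 4711-1, 4711-18 and 4716-11, and at 32.0, 32.4 and 41.9 TPM in Type V lines 4711-11, 4716-10 and 4716-14. All 3 Type V lines lay above all 3 Type D lines, but 4716-11 came close to them. The mean was 18.0 ± 9.26 TPM in Type D and 35.4 ± 5.59 TPM in Type V (SD, n = 3), a difference of -1.04 log2 (SE 0.29, limma adjusted p 0.0205, Type D minus Type V). This call rests on few lines and on the scaling: the difference was -0.94 without 4711-1, -0.76 without 4711-18, -1.10 without 4711-11 and -0.92 without 4716-14, none of them called, and -0.93 with median-ratio scaling. Across all treatments the Type D libraries lay at 9.79 to 28.5 TPM of Zeb1, below the Type V libraries at 32.0 to 47.6 TPM. In Type V it was the most even of the 7 factors, with an SD of 0.096 log2 between the means of the 3 lines.

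Zeb2 (chr2:44983632-45117395, minus strand, GENCODE on GRCm38), the paralog of Zeb1, was lower than Zeb1 in every line. Its Control levels were 5.37, 4.68 and 7.05 TPM in the Type D lines and 10.7, 7.28 and 12.4 TPM in the Type V lines. The groups did not overlap, though 4716-10 stood just above the highest Type D line. The difference of -0.72 log2 (SE 0.27, limma adjusted p 0.0878) was not called.

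Snai2, which encodes SLUG, had the lowest adjusted p of the 9 tested regulators between types in Control. The gene lies at chr16:14705852-14709385 on the plus strand. Its Control levels were 10.4, 4.81 and 12.7 TPM in Type D lines 4711-1, 4711-18 and 4716-11 and 133, 61.0 and 83.6 TPM in Type V lines 4711-11, 4716-10 and 4716-14. The lowest Type V line thus lay well above the highest Type D line. The means were 9.28 ± 4.04 and 92.6 ± 37.0 TPM (SD, n = 3), and the difference was -3.20 log2 (SE 0.58, limma adjusted p 0.000996). Snai2 belongs to a set of Type V genes that the study chose on these same samples, so this is not independent evidence of its direction.

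Snai1 (chr2:167538195-167542814, plus strand), the gene for SNAIL, behaved otherwise. It was low in 5 lines and high in 1. Control levels were 2.03, 1.78 and 3.31 TPM in the Type D lines, and in the Type V lines 1.28 TPM in 4711-11, 24.9 TPM in 4716-10 and 3.07 TPM in 4716-14. The groups overlapped, and without 4716-10 the difference between types turned from -0.91 log2 (limma adjusted p 0.548) to 0.12. In 4716-10 Snai1 stayed between 13.3 and 24.9 TPM in all 4 treatments.

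Twist1 (chr12:33957671-33959829, plus strand) and Twist2 (chr1:91801461-91848028, plus strand) encode closely related proteins and were divided differently among the lines. Control levels of Twist1 were 3.95, 3.06 and 18.3 TPM in Type D lines 4711-1, 4711-18 and 4716-11 and 36.1, 0 and 33.8 TPM in Type V lines 4711-11, 4716-10 and 4716-14. Line 4716-10 was listed at 0 in Control and Restored and reached only 0.131 and 0.1003 TPM in the CsA treatments, below every Type D line. The other Type V lines stood above every Type D library. The difference between types was -0.58 log2 (SE 1.61, limma adjusted p 0.856) with a 95% confidence interval from -3.95 to 2.80. Without 4716-10 it was -2.30 and called, whereas without 4711-11 it was 0.31 and without 4716-14 it was 0.26. A pseudocount of 0.1 also turned it, to 0.31.

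Control levels of Twist2 were 7.03, 0.862 and 6.29 TPM in the Type D lines and 7.99, 62.3 and 136 TPM in the Type V lines. The groups did not overlap, but 4711-11 stood next to the Type D lines and the other two far above. The difference was -3.16 log2 (SE 1.17), with a limma adjusted p of 0.0816. With the cell line as a random effect, 1 correlation being assumed for all genes, the SE was 0.74. The limma adjusted p was then 0.00576 and Twist2 was called. Each line belongs to 1 type, so no libraries were paired across types. The SD between line means was 1.83 log2 in Type V and 1.12 in Type D, so the smaller SE is not added evidence.

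Prrx1 (chr1:163245119-163313710, minus strand) was expressed in Type V lines only, as far as 1 TPM marks expression. Control levels were 0.0572, 0 and 0.327 TPM in the Type D lines and 2.63, 147 and 50.5 TPM in the Type V lines 4711-11, 4716-10 and 4716-14. No Type D library exceeded 0.497 TPM in any treatment, and no Type V library was under 2.63 TPM. The groups did not overlap, and the Type V lines differed widely among themselves. The difference was -4.75 log2 (SE 1.41, limma adjusted p 0.0308). Prrx1 entered the test only through its Type V levels, which by itself favors a difference between types, so the value is given as a description. Without the filter on low values the adjusted p was 0.0484. It was not called when any Type D line (-4.67 to -4.88) or 4716-14 (-4.37) was left out.

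The Type V lines differed widely among themselves in 4 factors. The SD between the 3 line means of Type V was 2.79 log2 for Twist1, 2.61 for Prrx1, 1.83 for Twist2 and 1.59 for Snai1, whereas within a line the SD over the 4 treatments was 0.22, 0.19, 0.18 and 0.27. In Type D the corresponding SD between lines was 1.11 log2 for Twist1, 1.12 for Twist2 and 0.73 for Snai2. Within Type D lines the SD over treatments was 0.24 for Twist1 and 0.33 for Twist2, but 0.71 for Snai2, about as large as that between lines, and for Snai1 (0.57) and Zeb2 (0.43) it was larger than between lines (0.29 and 0.13).

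**Figure D2:**
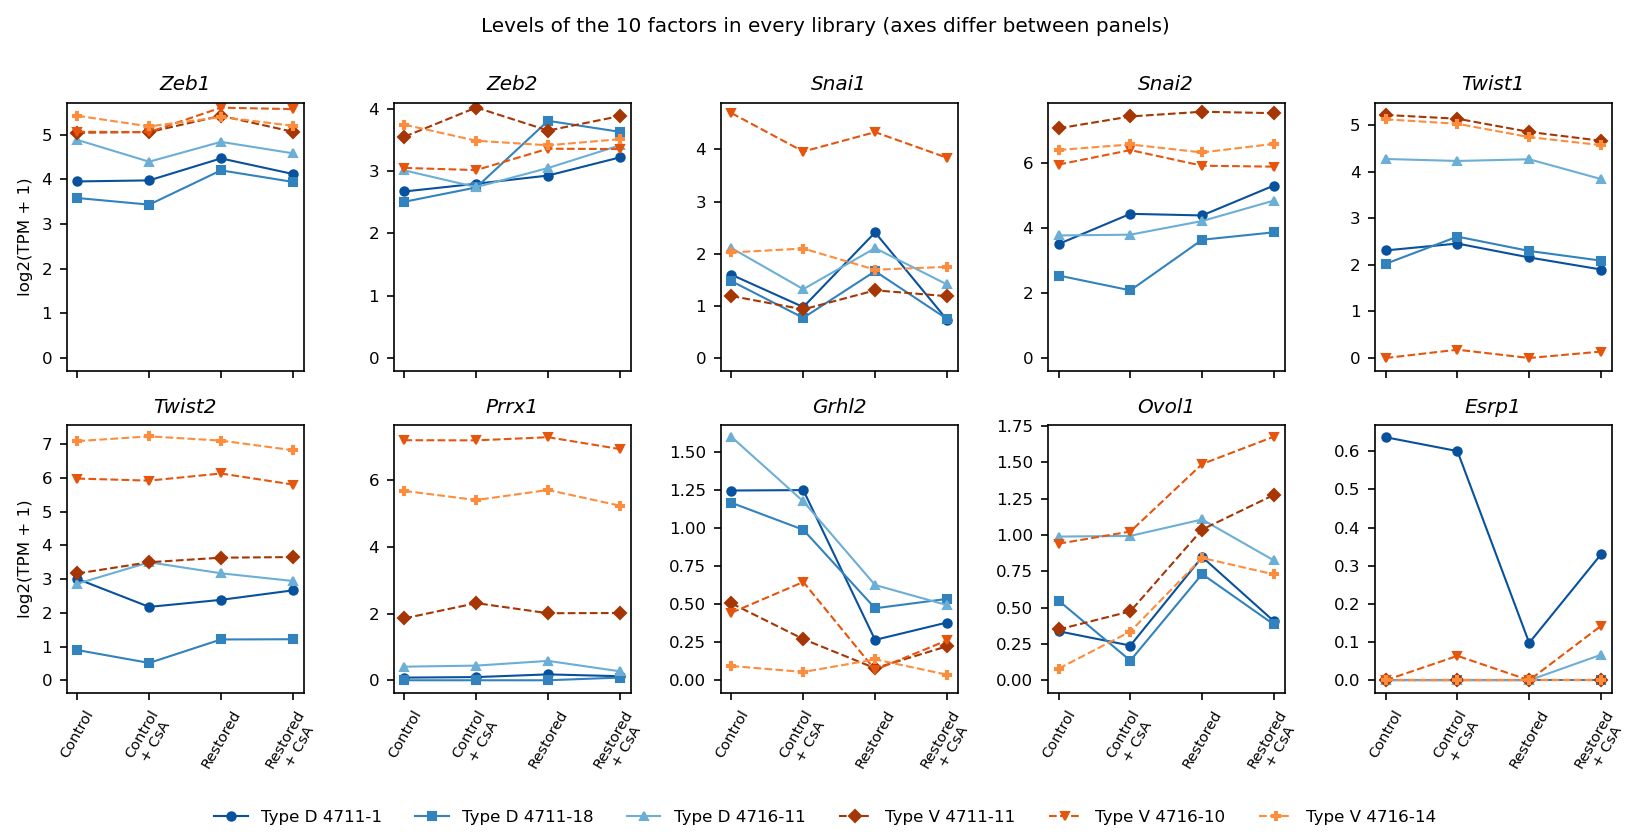
Each panel plots log2(TPM + 1) of 1 gene over the 4 treatments, with 1 line of points for each cell line, solid blue for Type D and dashed orange for Type V. Zeb1, Snai2, Twist2 and Prrx1 separate the types, Twist1 and Snai1 set 4716-10 apart, and Grhl2 is lower in Restored than in Control in each Type D line.

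Grhl2 (chr15:37233036-37363569, plus strand), the epithelial Grainyhead-like factor, ran opposite to the EMT factors at a low level. Control levels were 1.37, 1.24 and 2.03 TPM in Type D lines 4711-1, 4711-18 and 4716-11 and 0.419, 0.360 and 0.0670 TPM in Type V lines 4711-11, 4716-10 and 4716-14. The groups did not overlap. The difference of 0.99 log2 (SE 0.20, limma adjusted p 0.00249) passed the p threshold and fell just short of the 1 log2 limit. Grhl2 entered the test only through its Type D levels, so this value too is a description, and without the filter the adjusted p was 0.00025. The pseudocount of 1 compresses differences at such levels, and with 0.1 in its place the difference was 2.24 log2 and called. It was also called with median-ratio scaling (1.05) and quantile normalization (1.18). Grhl2 is part of a module that the study defined on these samples, so its pattern is not independent evidence either.

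Ovol1 (chr19:5549136-5560646, minus strand) and Esrp1 (chr4:11331933-11386783, minus strand) did not separate the types. Control levels of Ovol1 were 0.264, 0.463 and 0.985 TPM in Type D and 0.274, 0.919 and 0.0570 TPM in Type V, with a difference of 0.17 log2 (limma adjusted p 0.776) whose interval ran from -0.49 to 0.83. It turned to -0.01 without 4716-11 and to -0.02 without 4716-14. Esrp1 was listed at 0 in 17 of 24 libraries. Its highest value, 0.555 TPM, was in Control of Type D line 4711-1, the one line with a value above 0 in all 4 treatments. Its paralog Esrp2, named here after its values were seen, was expressed in both types, at 30.7 to 49.0 TPM in Type D Control and 6.47 to 52.3 TPM in Type V Control. Ovol2, the paralog of Ovol1, spanned 0 to 1.86 TPM and 0 to 0.116 TPM.

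Counted over all regulators, 3 of the 9 tested were called between types in Control (Zeb1, Snai2 and Prrx1, the last admitted by its Type V levels alone), where 8.83% of all tested genes were called. All 7 EMT factors had a negative difference, with a median of -1.04 log2 beside -0.12 over all genes (-0.018 after median-ratio scaling). In Control + CsA the same 3 genes were called, where the background was 9.88%. In Restored, 2 were called, Snai2 (-2.53 log2, limma adjusted p 0.00659) and Prrx1 (-4.76, 0.0283), beside 9.44% of all genes, and Zeb1 at -0.97 (0.0276) missed the fold limit alone. In Restored + CsA, 3 were called, beside 7.82%: Zeb1 (-1.06, limma adjusted p 0.0200), Snai2 (-1.998, 0.0304) and Prrx1 (-4.58, 0.0400; 0.0602 and not called without the filter). With the cell line as a block, Twist2 was called as well in each of the 4 treatments, calls that rest on 1 correlation assumed for all genes.

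The numbers called depended on single lines. Snai2 was called in Control, Control + CsA and Restored whichever line was left out, but in Restored + CsA it was not called without 4711-18 (-1.60), 4716-11 (-2.08), 4711-11 (-1.57) or 4716-14 (-2.04). The lowest count was 1 without 4716-14 in Control, and the highest was 5 without 4716-10 (Zeb1, Snai2, Twist1, Prrx1 and Grhl2). The line names begin with 4711 or 4716, and nothing in the sources states what this number means. Among 4711 lines in Control the difference was -4.04 log2 for Snai2, -1.82 for Prrx1, -1.28 for Zeb1 and -1.22 for Twist2, and among 4716 lines it was -2.41, -6.04, -0.36 and -3.67. Twist1 ran in opposite directions, at -3.05 among 4711 lines and 1.71 among 4716 lines, and so did Snai1 at 0.35 and -1.25. With 1 to 2 lines a cell these values carry no test.

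**Figure D3:**
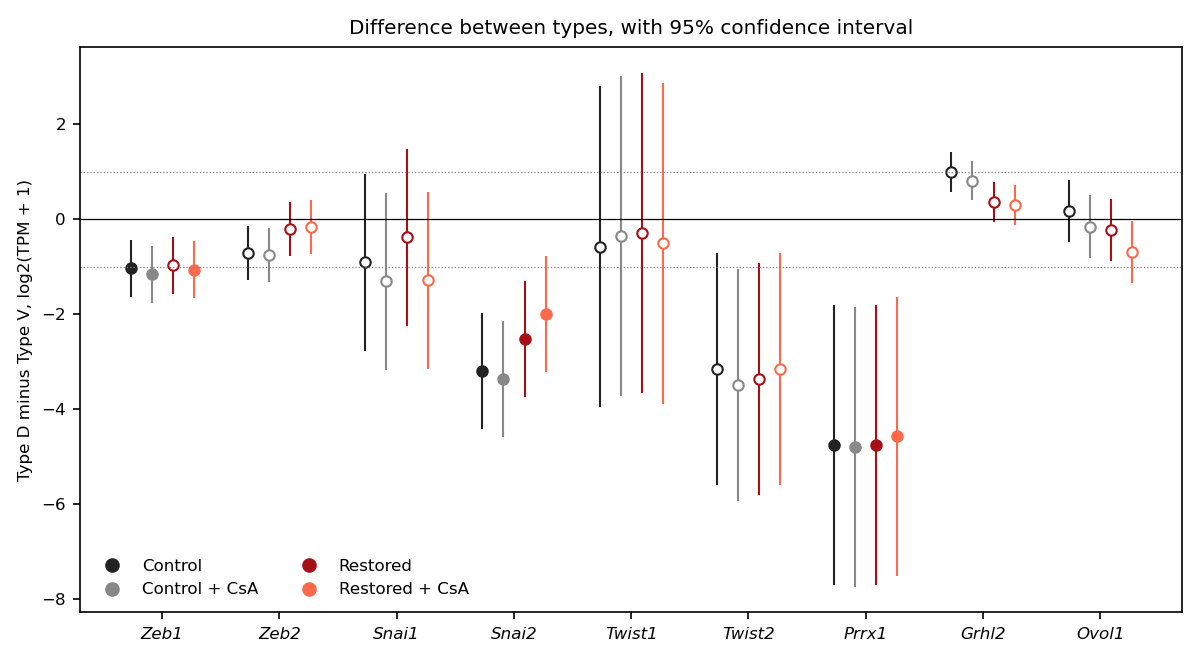
Points give the Type D minus Type V difference in log2(TPM + 1) for the 9 tested regulators in each treatment, with 95% confidence intervals, and filled points mark calls. Snai2 and Prrx1 lie below -1 in all 4 treatments, intervals of Twist1 span -3.95 to 2.80 in Control, and Grhl2 moves from 0.99 in Control to 0.36 in Restored.

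In the fit without the block, which does not pair the libraries of a line, p53 restoration called none of the 9 tested regulators. With the block, Snai2 alone was called, in Type D with CsA present. In Type D 6.93% of all genes were called, in Type V 5.29%, and with CsA present 5.41% in Type D and 4.61% in Type V. Without CsA, the sign was the same in all 3 lines for Grhl2, Snai2, Zeb2 and Ovol1 in Type D and for Ovol1, Twist2 and Prrx1 in Type V. How often this holds over all genes was not counted, so these signs are a description.

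Grhl2 was lower after restoration in each Type D line. It went from 1.37 to 0.202 TPM in 4711-1, from 1.24 to 0.388 TPM in 4711-18 and from 2.03 to 0.542 TPM in 4716-11, so that every Restored value lay below every Control value. The change was -0.88 log2 (SE 0.20, limma adjusted p 0.00585; 0.000633 without the filter). It is a description, since the 5 libraries that let Grhl2 pass the filter were all unrestored Type D. It was -1.82 and called with a pseudocount of 0.1, and -1.03 and called after quantile normalization. With CsA present, levels went from 1.38, 0.983 and 1.26 TPM to 0.3003, 0.448 and 0.408 TPM, a change of -0.67 log2 (SE 0.20, limma adjusted p 0.0425). In Type V the values went from 0.419, 0.360 and 0.0670 TPM to 0.0562, 0.0483 and 0.0998 TPM, which gave -0.25 log2 (limma adjusted p 0.536). The difference between the types in this response was -0.63 log2 with an unadjusted p of 0.0387 and an adjusted p of 1 by limma, and none of the 9 regulators was called for it, beside 0.0284% of all genes.

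Snai2 was higher after restoration in each Type D line. Its levels went from 10.4 to 19.9 TPM in 4711-1, from 4.81 to 11.5 TPM in 4711-18 and from 12.7 to 17.6 TPM in 4716-11. The groups overlapped because of the spread between lines. The change was 0.81 log2 (SE 0.58, limma adjusted p 0.436), and with the cell line as a block the adjusted p was 0.00818, still short of the fold limit. With CsA present, levels went from 20.7, 3.23 and 12.9 TPM to 38.6, 13.6 and 27.8 TPM, a change of 1.24 log2 (limma adjusted p 0.220) that the block called (adjusted p 0.00045). In Type V, the difference in Snai2 was 0.13 log2 without CsA and -0.13 with it (limma adjusted p 0.959 and 0.968). The responses of the types differed by 0.67 log2 with an adjusted p of 1, or 0.223 with the block.

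Zeb2 was also higher after restoration in all 3 Type D lines, with 1 line far ahead. Levels went from 5.37 to 6.61 TPM in 4711-1, from 4.68 to 12.98 TPM in 4711-18 and from 7.05 to 7.27 TPM in 4716-11. The change was 0.53 log2 (SE 0.27, limma adjusted p 0.235; 0.0416 with the block). With CsA present the 3 levels of 5.95, 5.66 and 5.69 TPM gave way to 8.31, 11.4 and 9.65 TPM, without overlap, at 0.66 log2 (limma adjusted p 0.149; 0.0152 with the block). For Zeb1 the differences were 0.36 and 0.30 log2 in the Type D and Type V lines, with limma adjusted p of 0.488 and 0.637.

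Ovol1, which opposes Zeb1 in epithelial cells, was higher after restoration in each Type V line. It went from 0.274 to 1.05 TPM in 4711-11, from 0.919 to 1.81 TPM in 4716-10 and from 0.0570 to 0.793 TPM in 4716-14. The change was 0.67 log2 (SE 0.31, limma adjusted p 0.220), and 0.000985 was the adjusted p with the block. Of the 6 libraries with at least 1 TPM of Ovol1, 2 were Type V Restored and 2 were Type V Restored + CsA. Ovol1 would not have passed the filter without these, so its values on restoration are a description. With CsA present it was 0.62 log2 (limma adjusted p 0.298; 0.0021 with the block). In Type D it was higher in all 3 lines as well, with a change of 0.27 log2. With CsA present it was higher in 2 of the 3 Type D lines, with a change of 0.08 log2. All of these levels lay near or under 1 TPM, where the counting error is unknown.

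For Twist1, Twist2 and Prrx1 the differences on restoration in Type V were -0.25, 0.21 and 0.09 log2 (limma adjusted p 0.979, 0.972 and 0.995), and Twist2 and Prrx1 were slightly higher in all 3 lines. The limma intervals were wide, from -3.62 to 3.13 log2 for Twist1, because the fit without the block carries the spread between lines. Twist1 in Type D with CsA present was lower in each line (-0.49 log2, limma adjusted p 0.952; 0.0111 with the block).

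**Figure D4:**
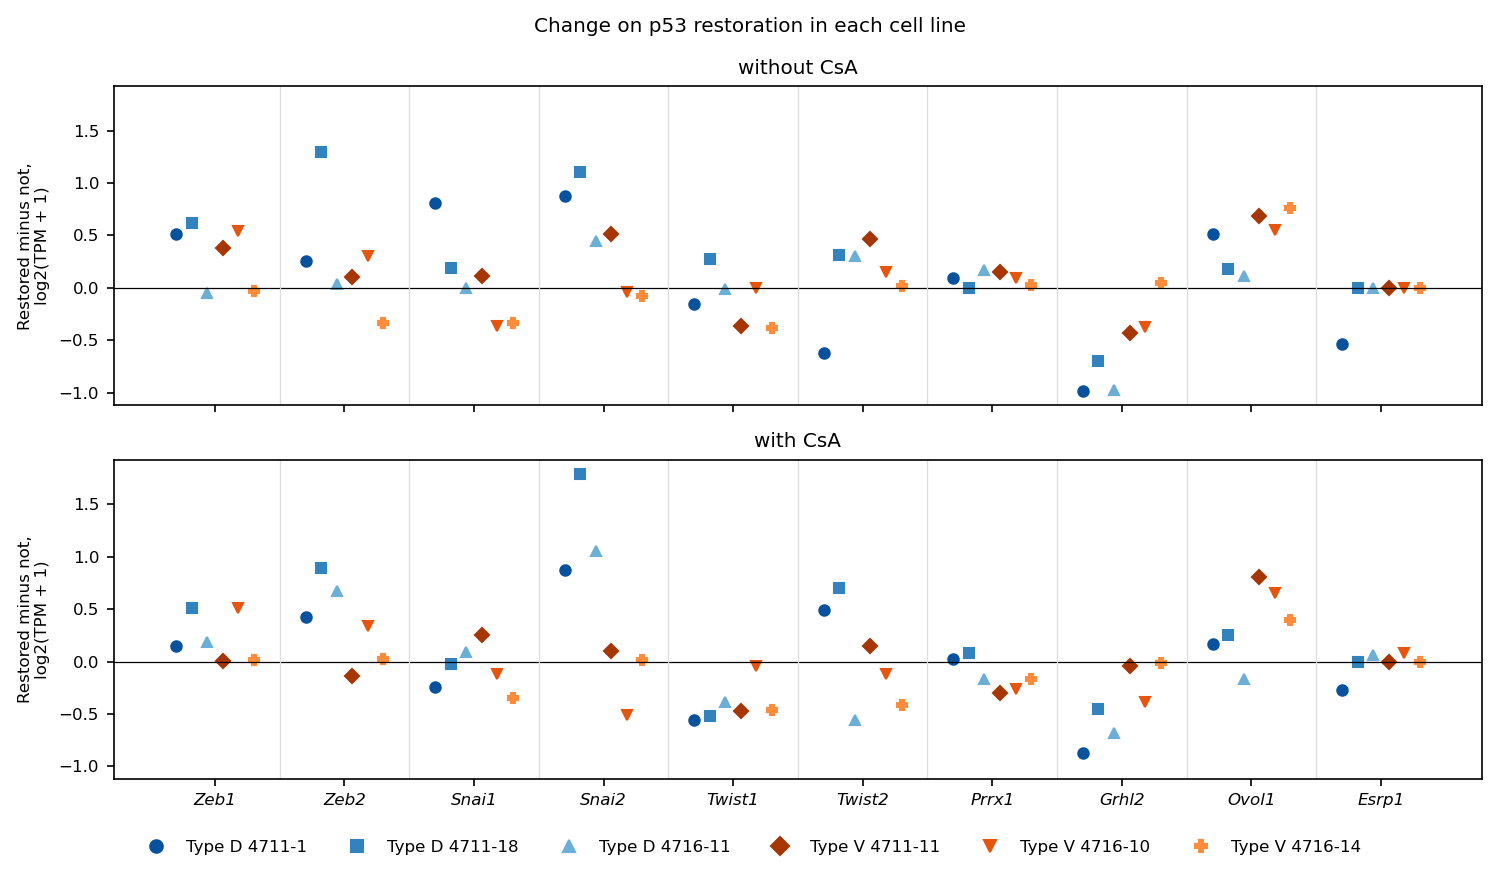
Points give the change in log2(TPM + 1) from the unrestored to the restored library of the same line, above without CsA and below with it, for all 10 regulators. Grhl2 lies below 0 in all 3 Type D lines in both panels, and Snai2 above 0 in the same lines. Ovol1 lies above 0 in all 3 Type V lines in both panels and in all 3 Type D lines in the upper panel.

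In the fit without the block, adding CsA was associated with no called regulator in Control or in Restored of either type. The background was 0% of all genes in Control of Type D and 0% in Control of Type V, with 114 and 54 genes at an unadjusted p under 0.05 by limma. In Restored it was 0.0142% for Type D and 0% for Type V, with 229 and 100 such genes. In Type D, Snai1 was lower with CsA in every line. Its levels went from 2.03, 1.78 and 3.31 TPM in Control to 0.969, 0.706 and 1.497 TPM with CsA, and from 4.31, 2.17 and 3.31 TPM in Restored to 0.667, 0.684 and 1.66 TPM with CsA. In both settings every CsA value lay below every value without it. How often this holds over all genes was not counted. The CsA values lay near 1 TPM, where the counting error is unknown, so the separation is a description. The change was -0.70 log2 in Control and -1.09 in Restored (SE 0.89 and limma adjusted p 1 for both). With the block, the change in Restored had a limma adjusted p of 0.0252 and was called, and the change in Control had 0.361. The share of all genes called with the block is not given here. In Type V, the values for Snai1 were -0.31 and -0.18 log2 (limma adjusted p 1 for both).

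The genes that these regulators are known to act on were then read from lists of textbook targets and partners. The lists were chosen with earlier results of these data known, so their counts and medians are not independent evidence. Of 23 epithelial target genes 21 were tested, where 8.83% of all tested genes were called in either direction between types in Control. Of the 21, 10 were called higher in Type D Control and 0 lower, with a median of 1.497 log2. Among the 23 listed, 6 stayed under 1 TPM in every Type V library. Those of them that were tested entered only through Type D levels, so the count is a description. The largest differences among the called genes were Cldn3, a tight junction claudin (4.58 log2, SE 0.46, limma adjusted p 1.85e-06), Tjp3, a tight junction scaffold (3.93, SE 0.61, 0.000253), and Krt19, a keratin of simple epithelia (3.78, SE 0.85, 0.00581). Krt8, named after its values were seen, differed by more without being called (6.18 log2, SE 2.22, limma adjusted p 0.0736). Cldn3 spanned 17.2 to 35.2 TPM in Type D Control and 0 to 0.422 TPM in Type V Control. No Type V library exceeded 0.508 TPM of Cldn3 in any treatment. It entered the test only through its Type D levels, so its value is a description. Cdh1, which encodes E-cadherin, was not called (1.497 log2, limma adjusted p 0.163). It spanned 641 to 903 TPM in Type D Control and 130 to 538 TPM in Type V Control and so was abundant in both types.

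Of the 20 mesenchymal target genes 8 were called lower in Type D Control and 0 higher, beside 8.83% of all tested genes in either direction. Among the 20 listed, 8 stayed under 1 TPM in every Type D library. Those of them that were tested entered only through Type V levels, so this count is a description too. The list median was -2.55 log2. The leading ones were Lox, a collagen cross-linking oxidase (-7.19 log2, SE 0.75, limma adjusted p 3.02e-06), and the type I collagen genes Col1a2 (-6.00, SE 0.63, 3.41e-06) and Col1a1 (-5.49, SE 1.60, 0.0288). Lox and Col1a2 did not exceed 0.237 and 0.0673 TPM in any Type D library. They entered the test only through their Type V levels, so their values are descriptions. Vim, the mesenchymal intermediate filament, averaged 4155 ± 1167 TPM in Type D and 4400 ± 779 TPM in Type V (SD, n = 3; -0.10 log2, limma adjusted p 0.863). High levels of Vim therefore accompanied high Cdh1 in the Type D lines. The summed level of the 20 mesenchymal targets over all treatments was not lower in Type D, with a median of 8486 TPM beside 7859 TPM in Type V. That sum is set largely by Vim and by S100a4, named after its values were seen. S100a4 ran against the list, with a mean of 6791 TPM in Type D Control and 851 TPM in Type V Control. The sum therefore does not describe the list as a whole, whose median difference was negative.

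Other regulators of the same kind were divided in part, read beside the same 8.83% of all tested genes called between types in Control. Of 11 further mesenchymal factors 10 were tested, and 3 were lower in Type D Control, among them Tcf4, an E-protein partner of TWIST (-4.19 log2, limma adjusted p 0.00654), and Foxc1, a forkhead factor (-3.55, 3.95e-09). The median of the 10 was -0.51 log2, with 6 negative and 4 positive. Of the 11 listed, 4 stayed under 1 TPM in every Type D library, and those of them tested entered only through Type V levels. Of 12 further epithelial regulators 9 were tested, and 3 were higher: the RNA-binding protein gene Rbm47 (3.04, 0.00971) and the Krüppel-like factors Klf4 (2.44, 0.0012) and Klf5 (1.52, 0.00105), with a median of 1.52 log2. Among 8 TGF-beta ligands, receptors and SMADs, which induce EMT factors, 2 ligands were lower in Type D, Tgfb2 (-4.08, 0.0029) and Tgfb3 (-2.22, 0.00659). None of 10 corepressors and chromatin partners was called, and their median of -0.11 log2 lay at the all-gene value.

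In the fit without the block, restoration called few of these genes, where 6.93% of all tested genes were called in Type D and 5.29% in Type V. St14, an epithelial membrane protease, rose in Type D by 4.03 log2 (SE 0.51, limma adjusted p 1.88e-05) and in Type V by 2.60 (SE 0.51, 0.00209). Its Control levels did not exceed 0.401 TPM in Type D or 0.266 TPM in Type V. St14 thus passed the filter only through libraries of other treatments, where it reached 28.9 and 13.7 TPM, so its changes are descriptions. In Type V the epithelial regulators Grhl1 (1.65 log2, limma adjusted p 0.0486) and Klf4 (1.49, 0.0411) rose, though neither was called with median-ratio scaling, and Col1a2 fell by 2.86 on the log2 scale (0.00594). In Type D, 0 of the further mesenchymal and epithelial factors and 0 of the mesenchymal targets were called. The 10 corepressors all had a negative value in Type V, with a median of -0.32 log2 beside 0.05 over all genes, and 0 were called.

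**Figure D5:**
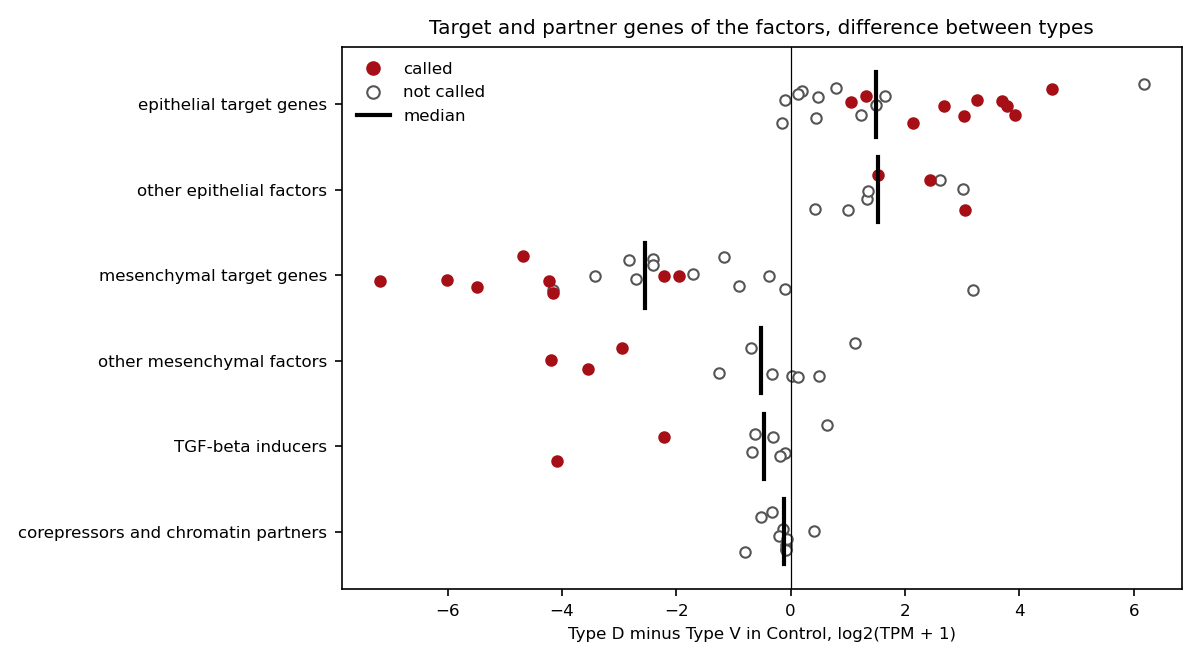
Each point is 1 gene's Type D minus Type V difference in Control on the log2(TPM + 1) scale, by list, with calls filled and the list median as a bar. Medians are 1.497 for epithelial targets, 1.52 for further epithelial factors, -2.55 for mesenchymal targets and -0.11 for corepressors.

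Markers of other cells were read beside these results. The 8 fibroblast markers summed to 0.634 to 1.34 TPM in Type D Control and to 227 to 500 TPM in Type V Control, and over all treatments to at most 1.93 TPM in Type D and 75.6 to 572 TPM in Type V. In Type D 7 of the 8 stayed under 1 TPM in every library, and in Type V 2 did. Among Type V lines the sum was 227 TPM in 4711-11, 500 TPM in 4716-10 and 374 TPM in 4716-14. The list shares 3 collagen genes with the mesenchymal targets. Pdgfrb reached 143 TPM and Dcn 71.9 TPM in Type V, whereas Thy1 was listed at 0 in every Type V library and Lum did not exceed 0.844 TPM. The fibroblast markers thus moved with Snai2, Twist2 and Prrx1 between the types, and their part in those differences was not tested. Immune markers summed to 8.13 to 10.2 TPM and 7.97 to 10.8 TPM in Type D and Type V Control, and endothelial markers to 4.67 to 7.27 TPM and 1.23 to 3.46 TPM.

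Genes whose pattern over the 24 libraries was most like that of a regulator were found by Pearson's r after subtracting the mean of each type. These values describe 6 lines with 4 libraries each and carry no test. Prrx1 was most like Wnt6 (r = 0.984), a Wnt ligand gene, followed by Hunk and Kctd15 (both 0.974). Twist1 was most like Celf2 (0.954), Twist2 like Fam32a (0.949), Snai1 like Sprr2e (0.937), Snai2 like Taf1c (0.926), Zeb2 like Rassf8 (0.895) and Zeb1 like Tubb6 (0.863). Among the regulators themselves, Snai1 and Prrx1 varied together (r = 0.81), as did Twist2 and Prrx1 (0.71). Twist1 varied against Snai1 (-0.77) and Prrx1 (-0.67), and 4716-10 was the line with the highest Snai1 and Prrx1 and the lowest Twist1.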

How the data were processed

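The authors deposited 1 table of TPM values per gene and library, from stranded, single-end mRNA libraries. Their methods name Kallisto or HISAT2 and give both mm10 and GRCm39, so aligner and build behind the table are uncertain. The columns sum to 1000000, and depth is unknown. Values were used as log2(TPM + 1). limma 3.58.1 (R 4.3.3, eBayes with trend, two-sided) was fitted with 1 coefficient for each of 8 groups over 14104 of 25239 genes, in 13 comparisons. Adjusted p-values are Benjamini-Hochberg over all tested genes of a comparison.

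Libraries of a line are paired by the labels' cell line. After removing group means, libraries of 1 line correlated at 0.599 to 0.929 (36 pairs) and those of different lines of a type at -0.675 to 0.0438 (72 pairs). The block entered the cell line as a term within types and as a random effect between types.

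Members and lists were chosen with earlier results of these data known. All 10 members are named. Of each other list, up to 3 called genes a direction are named between types in Control and up to 2 on restoration. Values of 2 list genes are not reported here. The 3 nearest genes were ranked for members reaching 5 TPM, and the first is given where 1 is. Promoters shown are those of the called epithelial targets with the largest differences, and those of 4 EMT factors were added after their values were seen. Positions are from GENCODE M21 on GRCm38. Results were recomputed with a pseudocount of 0.1, without the filter, with a minimum of 5 TPM, and with median-ratio scaling, quantile normalization, the compared groups alone, the line-name number as a term, the block and leaving out each line. Tests were checked on simulated data. Plots were made in Python 3.11.15 (matplotlib 3.10.9).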

Additional observations from a re-analysis of the deposited data

How the results depend on the processing

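The number of regulators called between types depended most on the samples in the fit. With the compared groups only, it was 1 in Control, 1 in Control + CsA, 1 in Restored and 0 in Restored + CsA. A pseudocount of 0.1 gave 5 in Control + CsA. Leaving out 1 line at a time gave 1 to 5 in Control, 1 to 4 in Control + CsA, 1 to 3 in Restored and 0 to 3 in Restored + CsA. For restoration in Type D, a pseudocount of 0.1 and quantile normalization each gave 1 (Grhl2), and the replicate block gave 1 for restoration with CsA (Snai2) and 1 for CsA in Type D Restored (Snai1). The block changed no other count of regulators beyond the Twist2 calls given in the report. The direction in Control reversed for Twist1 with a pseudocount of 0.1 (0.31). Leaving out 1 line reversed it for Twist1 (-2.30 to 0.31; 0.31 and 0.26 without 4711-11 and 4716-14), for Snai1 (-1.63 to 0.12; 0.12 without 4716-10) and for Ovol1 (-0.020 to 0.41; below 0 without 4716-11 or 4716-14). For further epithelial factors a pseudocount of 0.1 gave 5 calls between types and 1 on restoration in Type V, where median-ratio scaling gave 0. With the block, which pairs no libraries between types, 6 further epithelial factors and 15 mesenchymal targets were called between types. On restoration in Type D the block called 1 further mesenchymal factor, 4 further epithelial factors, 3 epithelial targets and 3 mesenchymal targets, and in Type V 9 mesenchymal targets. The share of all genes called with the block is not given here, and the block lowers the SE of many genes. All counts with the block are therefore descriptions, not results about these lists. Of 237 counts 205 stayed within 1.5 times the main value, and of 455 single differences 373 kept direction and side of the threshold. Depth is unknown, so values under 1 TPM cannot be given a counting error. The causes of these changes were not tested.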
